A study of Mus musculus with 12 samples.

Results

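The aryl hydrocarbon receptor axis was taken here as 5 genes: Ahr, which encodes the receptor, its DNA-binding partner Arnt, its repressor Ahrr, its target and feedback inhibitor Tiparp, and Nfe2l2, which encodes the oxidative stress factor NRF2. The members were the rows of the deposited count tables with these symbols, and all 5 were found among 24046 symbols. RNA was sequenced from sorted splenic follicular (FO) B cells, which recirculate through lymphoid follicles. The 4 groups were Jmjd1c KO cells given anti-IgM, which triggers the B cell receptor, for 2 h, Jmjd1c KO cells at 0 h, Jmjd1c WT cells given anti-IgM for 2 h and Jmjd1c WT cells at 0 h. Each group had 3 libraries, and per the library names each of 6 mice gave both times. Jmjd1c encodes a protein of the JmjC histone demethylase family, and the series title links it to autoimmunity and antibody production. The sources used here do not give strain, age, the kind of knockout allele or any Cre driver.

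AHR is a transcription factor of the basic helix-loop-helix PAS (bHLH-PAS) family that small molecules switch on, among them dioxin and products of tryptophan. Without ligand it is held in the cytosol with the chaperone HSP90 and the co-chaperone p23. With ligand it enters the nucleus, pairs with ARNT and binds xenobiotic response elements near genes such as Cyp1a1. AHRR competes with AHR for ARNT, and TIPARP, a mono-ADP-ribosyltransferase, modifies AHR and limits its activity. NRF2 is kept low by KEAP1 and, once released, acts through antioxidant response elements, and the pathways share targets such as Nqo1. Activation is known to raise Ahr in mouse B cells.

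Ahrr and Tiparp are the members known as direct AHR targets, and their promoters are shown because they carry the core of the element through which AHR acts. Only this core was sought, not the whole element. The sequences are RefSeq's, on build GRCm38.p6, and each covers 300 bases, most of them before the start site. Capitals mark the core of the xenobiotic response element, GCGTG, read on either strand, so that a core on the minus strand is printed as CACGC. The Ahrr window lies at chr13:74292282-74292581 on the minus strand and the Tiparp window at chr3:65528197-65528496 on the plus strand.
Ahrr: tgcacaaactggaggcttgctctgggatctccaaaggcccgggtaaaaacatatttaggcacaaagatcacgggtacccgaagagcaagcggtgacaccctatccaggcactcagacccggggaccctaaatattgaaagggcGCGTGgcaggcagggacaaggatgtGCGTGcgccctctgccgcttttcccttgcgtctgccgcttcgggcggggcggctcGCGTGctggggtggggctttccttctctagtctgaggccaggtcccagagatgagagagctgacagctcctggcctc
Tiparp: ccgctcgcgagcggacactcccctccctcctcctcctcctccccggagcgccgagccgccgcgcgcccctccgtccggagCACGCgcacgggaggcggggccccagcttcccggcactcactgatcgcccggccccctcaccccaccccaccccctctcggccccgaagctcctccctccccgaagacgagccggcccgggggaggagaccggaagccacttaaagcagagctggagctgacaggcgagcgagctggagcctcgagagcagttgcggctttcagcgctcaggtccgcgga
The Ahrr window held 3 cores, which began 107, 82 and 27 bases before the start site. The Tiparp window held 1, at 170 bases before it and on the minus strand. Of 32851 promoters of 300 bases, 32.4% held at least 1 core and 3.91% held 3 or more. The core of the antioxidant response element, TGACNNNGC, was also sought on both strands and occurred in 12.4% of promoters. Nfe2l2 had 1 such core, at 240 bases before its start site, and no GCGTG. Arnt had 2, at 127 and 50 bases, and 1 GCGTG at 29 bases. In all, 4 members matched the promoter table and 1, Ahr, did not. A match describes the letters of the window and does not show binding.

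The libraries held between 5666013 and 14153396 counts, and levels are given in CPM, counts scaled to one common total with TMM factors. The floor of 3 counts, up to which a count of 0 leaves the level unknown, was 0.183 to 1.02 CPM, for counting error only. The 45S ribosomal RNA row, Rn45s, took 52.3% of counts in KO 2 h replicate 1 and 24.8% in WT 2 h replicate 1, while these mice had 0.572% (KO) and 1.09% (WT) at 0 h. It took 12.9% to 15.5% in the libraries of batch 2 and at most 0.624% in those of batch 3. Both 2 h libraries of batch 1 also stood apart from the 0 h libraries of their own animals in other genes. The proliferation gene Mki67 stood at 530 CPM at 2 h and 13.5 CPM at 0 h in KO replicate 1, and at 138 CPM at 2 h and 8.81 CPM at 0 h in WT replicate 1. Over both times Mki67 stood at 67.2 to 97.2 CPM in the libraries of batch 2 and at 12.4 to 14.5 CPM in those of batch 3. Summed Y-linked genes stood at 48.1 CPM at 2 h and 0.985 CPM at 0 h in KO replicate 1, and at 11.9 CPM at 2 h and 0.476 CPM at 0 h in WT replicate 1. Whether the 2 h libraries of batch 1, or the libraries of batch 2, hold RNA of another sample was not tested. Xist, which is expressed in female cells, stood at 1180 CPM in KO and 1150 CPM in WT 0 h libraries of batch 1. At 2 h in batch 1 it stood at 619 CPM in KO and 1300 CPM in WT. In the 0 h libraries of batches 2 and 3 it stood at no more than 41.4 CPM, with Y-linked sums of 404 to 491 CPM. Over both times Xist stood at 32.4 to 53.5 CPM in batch 2 and at 0.864 to 1.47 CPM in batch 3. By these genes the batch 1 mice were female and the others male, so that sex and batch 1 cannot be told apart. The summed B cell markers Ms4a1, Cd79a, Cd79b, Pax5, Cd22 and Fcer2a lay between 1890 and 4094 CPM, and T cell and myeloid markers at no more than 62.9 and 91.1 CPM. Of these 6 B cell markers, edgeR called 4 lower at 2 h in KO and 2 in WT (adjusted p under 0.05). Of all tested genes, 13.0% were called lower in KO and 9.06% in WT. None of the markers was called for a difference in response between the genotypes. The summed plasma cell markers Sdc1, Igj, Prdm1 and Irf4 lay between 1036 and 2458 CPM in KO 2 h, 507 and 607 CPM in KO 0 h, 1813 and 2196 CPM in WT 2 h, and 450.2 and 525 CPM in WT 0 h libraries. The rise of this sum lay mainly in Irf4, which averaged 1640 CPM at 2 h and 384 CPM at 0 h in KO. In WT Irf4 averaged 1900 CPM at 2 h and 360 CPM at 0 h. Sdc1 and Igj had lower means at 2 h than at 0 h in both genotypes. Prdm1 averaged 21.5 CPM at 2 h and 18.5 CPM at 0 h in KO, and 27 CPM at 2 h and 13.8 CPM at 0 h in WT. The part of plasma cells in the 2 h changes was not tested. Jmjd1c averaged 207 ± 7.30 CPM in KO 2 h and 296 ± 26.3 CPM in WT 2 h libraries, and 221 ± 21.5 CPM in KO 0 h and 325 ± 35.7 CPM in WT 0 h libraries (SD, n = 3 each). The groups did not overlap at either time, but the gene was not called by edgeR (adjusted p = 0.887 at 2 h and 0.9999 at 0 h). DESeq2 with the batch number as a replicate block called it, with log2 fold changes of -0.50 at 2 h (adjusted p = 3.56e-06) and -0.55 at 0 h (adjusted p = 5.05e-08). DESeq2 without the block did not call it (adjusted p = 0.207 at 2 h and 0.242 at 0 h). Neither did edgeR with the batch block at either time (adjusted p = 0.678 at 2 h). Jmjd1c stayed uncalled in 22 of 23 alternative settings at 2 h and 21 of 23 at 0 h. Reep3 overlaps Jmjd1c on the other strand.

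Ahr rose strongly within 2 h of anti-IgM in both genotypes. In KO cells its level was 45.7, 104 and 85.4 CPM at 2 h, against 11.7, 9.06 and 7.27 CPM at 0 h in replicates 1 to 3. In WT cells it was 40.5, 124 and 131 CPM at 2 h, against 9.05, 15.8 and 12.1 CPM at 0 h. Every 2 h library lay above every 0 h library, and replicate 1 was the lowest of the 2 h libraries in each genotype. The log2 fold change was 3.09 ± 0.45 in KO (SE, 8.51-fold, 95% interval 4.33 to 16.7) and 3.01 ± 0.44 in WT (8.06-fold, 4.14 to 15.7). Both were called by edgeR's quasi-likelihood test with Benjamini-Hochberg adjustment (adjusted p = 0.00063 in KO and 0.000927 in WT). Ranked by the size of the rise among the 12242 tested genes, Ahr was 141st in KO and 15th in WT.

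Of the 4 members tested, 2 were called in each genotype, Ahr higher and Arnt lower. Of all tested genes, 27.1% were called in KO and 19.8% in WT, 14.1% as higher and 13.0% as lower in KO, and 10.7% as higher and 9.06% as lower in WT. These shares are also the background for the counts of called genes in each pathway list. The same 2 members had groups that did not overlap between the times, as did 37.5% of tested genes in KO and 43.9% in WT. Fewer cells of a type and less RNA per cell cannot be told apart in such bulk samples.

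**Figure D1:**
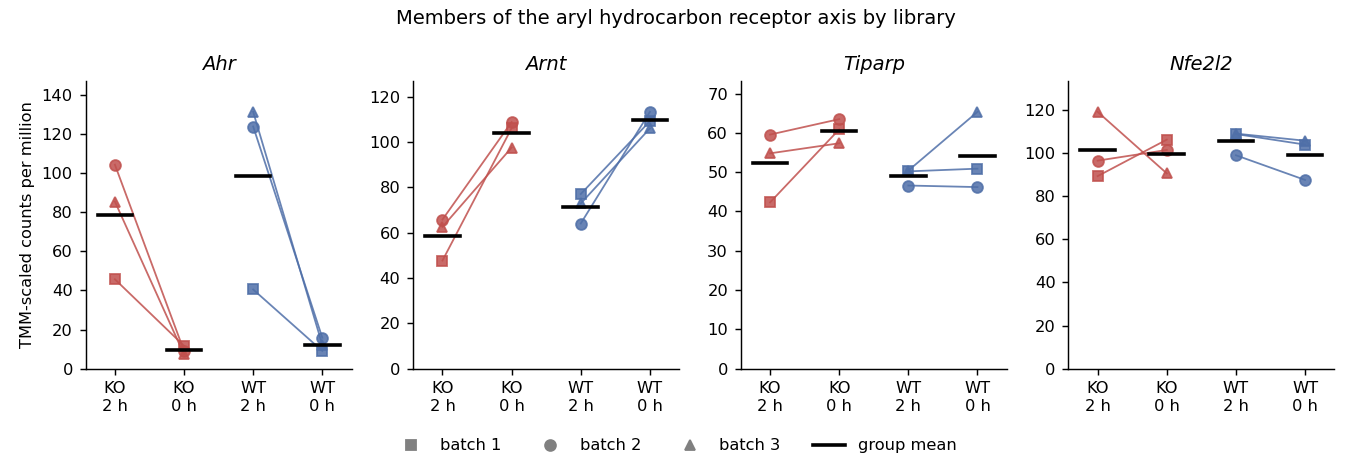
Level of the 4 tested members in each library, in TMM-scaled CPM. Lines join both times of a mouse, symbols mark the batch and bars the group mean. Ahr is higher and Arnt lower at 2 h in all 6 mice, while the times overlap for Tiparp and Nfe2l2.

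The size of the Ahr rise varied between mice. Within animals it was 3.92-, 11.5- and 11.8-fold in KO replicates 1 to 3 and 4.47-, 7.83- and 10.8-fold in WT replicates 1 to 3. The smallest rise in each genotype was thus in batch 1, whose 2 h libraries had the highest Rn45s shares. Its mice also differed in sex from those of the other batches, as read from Xist and the Y-linked genes. The part of either difference in the result was not tested. Ahr was among 69 genes called higher in both genotypes with a log2 fold change over 2 in each. Of these, 34 (49.3%), Ahr included, had both batch 1 rises below the other 4. Without all 4 libraries of batch 1, an alternative chosen after seeing the data, the log2 fold change of Ahr was 3.55 ± 0.19 in KO and 3.21 ± 0.18 in WT. Ahr was called in both genotypes in all 24 alternative settings (2.84 to 3.55 in KO and 2.74 to 3.38 in WT).

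Among the genes of the proteins that hold AHR in the cytosol, the HSP90 genes and Ptges3 rose in both genotypes. The median log2 fold change of all tested genes was 0.043 in KO and 0.0091 in WT. Hsp90ab1, the constitutive form of HSP90, averaged 2090 ± 206 CPM at 2 h and 1030 ± 23.1 CPM at 0 h in KO. In WT it averaged 2060 ± 354 CPM at 2 h and 1000 ± 122 CPM at 0 h (n = 3 each). Its log2 fold change was 1.02 ± 0.16 in KO and 1.04 ± 0.16 in WT. The inducible form Hsp90aa1 rose by 0.93 in KO and 0.71 in WT, and Ptges3, which encodes p23, by 0.54 in KO and 0.62 in WT.

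Genes that supply AHR ligands from tryptophan moved unevenly. Of 10 tested genes, 3 rose and 1 fell in KO and 3 rose and 0 fell in WT, and the medians were -0.19 in KO and -0.29 in WT. With the batch number as a replicate block, 2 fell in KO and 1 in WT, and without all 4 libraries of batch 1, 0 fell in either. Il4i1 encodes a secreted amino acid oxidase that turns tryptophan into AHR-activating products. It averaged 744 ± 144 CPM at 2 h and 111 ± 13.9 CPM at 0 h in KO, and 754 ± 108 CPM at 2 h and 108 ± 10.1 CPM at 0 h in WT. Its log2 fold change was 2.75 ± 0.18 in KO and 2.81 ± 0.19 in WT (adjusted p = 1.92e-05 in KO and 2.17e-05 in WT). Slc7a5 and Slc3a2 form the large neutral amino acid transporter that carries tryptophan and kynurenine. Slc7a5 rose by 2.29 ± 0.43 in KO and 2.33 ± 0.43 in WT, and Slc3a2 by 1.08 ± 0.18 in KO and 1.04 ± 0.18 in WT. Kynu, which encodes kynureninase and breaks kynurenine down, fell by 1.22 ± 0.34 in KO (adjusted p = 0.0198). In WT it had a log2 fold change of -0.77 and was not called (adjusted p = 0.134). The Kynu call in KO was lost without KO 0 h replicate 3, without KO 2 h replicate 2 (adjusted p up to 0.0711), and without all 4 libraries of batch 1. Ido1 and Ido2 were not found under these names among the 24046 symbols, and Aadat had no count in any library.

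Arnt, which encodes the partner that AHR needs to bind DNA and that also pairs with HIF-1α, fell in both genotypes. In KO cells its level was 47.7, 65.9 and 62.6 CPM at 2 h, against 106, 109 and 97.6 CPM at 0 h. In WT cells it was 77.1, 64.1 and 72.9 CPM at 2 h, against 109, 113 and 106 CPM at 0 h. All 2 h libraries lay below all 0 h libraries, and the lowest was KO 2 h replicate 1. The log2 fold change was -0.82 ± 0.13 in KO (0.568-fold, 95% interval 0.469 to 0.688) and -0.62 ± 0.13 in WT (0.652-fold, 0.539 to 0.788). Both were called by edgeR (adjusted p = 0.000934 in KO and 0.00546 in WT). Arnt was lower at 2 h in 3 of 3 KO and 3 of 3 WT mice and was called in all 24 alternative settings in each genotype. Without all 4 libraries of batch 1 its log2 fold change was -0.68 ± 0.12 in KO and -0.68 ± 0.12 in WT.

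Among 13 other bHLH-PAS genes 5 were expressed highly enough to test. In KO 0 rose and 2 fell (median -0.34), and in WT 0 rose and 1 fell (median -0.25). The WT median was -0.045 without both 2 h libraries of batch 1. Without all 4 libraries of batch 1, 1 fell in KO and 0 in WT, where the median was -0.12. Arntl, which encodes the circadian clock factor BMAL1, fell by 0.79 ± 0.16 in KO (adjusted p = 0.00444) and by 0.51 ± 0.16 in WT (adjusted p = 0.046). Its WT call was lost without any of 10 libraries (adjusted p up to 0.162) and with the animal as a replicate block (adjusted p = 0.0845). Hif1a, the oxygen-regulated partner of ARNT, averaged 149 ± 30.5 CPM at 2 h and 209 ± 6.91 CPM at 0 h in KO and fell by 0.48 ± 0.14 (adjusted p = 0.0282). This call was lost without any of 4 libraries (adjusted p up to 0.0799) and without all of batch 1. In WT, Hif1a averaged 180 ± 15.8 CPM at 2 h and 214 ± 11.5 CPM at 0 h and was not called (adjusted p = 0.26). Arnt2, a close relative of Arnt, was near 0, at most 0.054 CPM in a group mean.

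Of 16 tested HIF-1 target genes, 7 rose and 0 fell in KO and 6 rose and 1 fell in WT, with medians of 0.72 in KO and 0.33 in WT. The KO median was 0.15 without KO 2 h replicate 1, with 6 higher and 0 lower, and in WT 0 fell without all 4 libraries of batch 1. Vegfa, an angiogenic growth factor, averaged 53.3 ± 21.2 CPM at 2 h and 7.98 ± 1.70 CPM at 0 h in KO, and 49.2 ± 12.5 CPM at 2 h and 7.21 ± 1.52 CPM at 0 h in WT. Its log2 fold change was 2.76 ± 0.30 in KO and 2.78 ± 0.30 in WT. The glycolytic genes Hk2 (hexokinase) and Ldha (lactate dehydrogenase) rose by 2.31 and 1.57 in KO and by 2.18 and 1.38 in WT. Adm, which encodes the peptide adrenomedullin, rose by 1.79 in KO and 1.56 in WT. Pdk1, a kinase that holds back pyruvate oxidation, fell by 0.52 ± 0.16 in WT (adjusted p = 0.0365), a call lost without any of 6 libraries (adjusted p up to 0.148) and without all of batch 1. In KO it had a log2 fold change of -0.34 (adjusted p = 0.128).

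**Figure D2:**
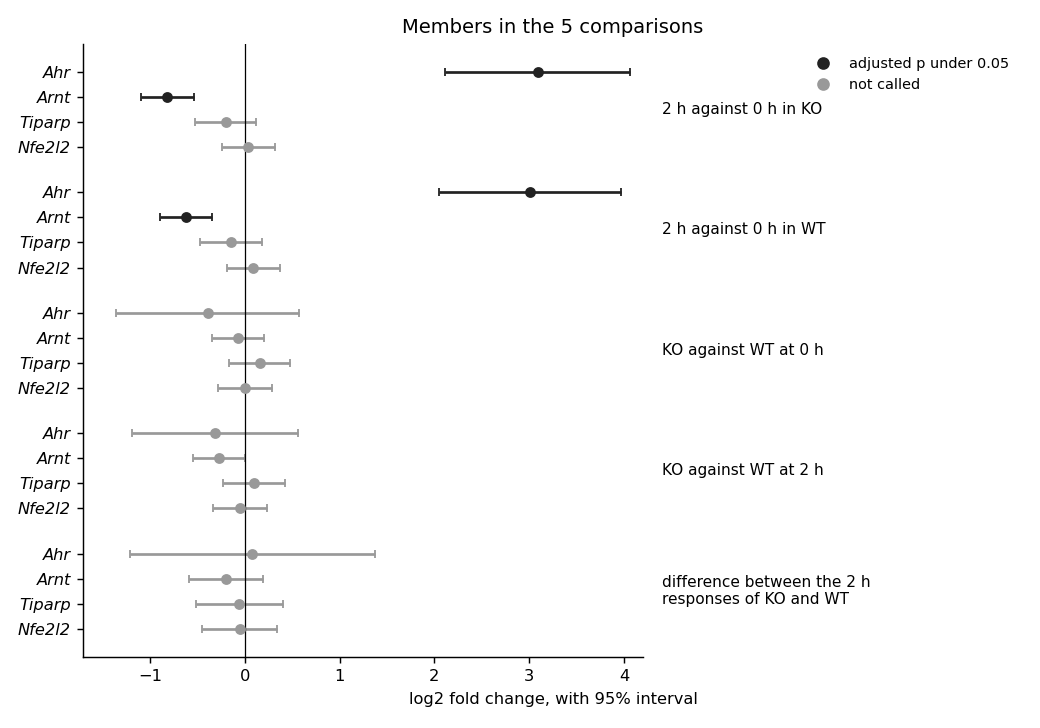
Log2 fold change of the 4 tested members in each of 5 comparisons, with 95% intervals from the edgeR fit; black points were called at an adjusted p under 0.05. Ahr and Arnt are called in both comparisons of 2 h with 0 h, and all intervals between genotypes include 0.

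Ahrr, the repressor, was at or near 0 in all groups. Its counts were 0, 0 and 3 in KO 2 h, 2, 0 and 1 in KO 0 h, 3, 0 and 0 in WT 2 h, and 1, 0 and 6 in WT 0 h libraries, 16 in all. Only 1 library, WT 0 h replicate 3, held more than 3 counts. Ahrr did not pass the filter on low counts, so that no fold change is given, and a change was not detectable at this depth. In a fit without the filter its adjusted p was between 0.953 and 1 over the 5 comparisons.

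Tiparp, the ADP-ribosyltransferase that AHR induces in many cells, did not pass the test in either genotype. In KO cells its level was 42.3, 59.6 and 54.8 CPM at 2 h, against 60.9, 63.5 and 57.4 CPM at 0 h. In WT cells it was 50.2, 46.6 and 50.4 CPM at 2 h, against 50.9, 46.2 and 65.4 CPM at 0 h. The times overlapped in both genotypes, and only WT replicate 2 was higher at 2 h than at 0 h. The log2 fold change was -0.20 in KO (95% interval -0.53 to 0.12) and -0.14 in WT (-0.47 to 0.18), so that the upper bounds correspond to 1.09-fold in KO and 1.13-fold in WT. A transcribed pseudogene of the files, 4931440P22Rik, overlaps Tiparp on the other strand, and reads of the pair cannot be told apart because the strand setting is not given.

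The classical AHR targets were scarcely expressed. Of 9 listed genes 3 passed the filter on low counts, Nqo1, Ugt1a6a and Ugt1a6b, and 0 of 3 were called in either genotype. Cyp1a1, the best known AHR target, had at most 1 count in a library, in 4 of the 0 h libraries and in none at 2 h, and Cyp1b1 at most 2. Nqo1, a quinone reductase shared with NRF2, averaged 1.07 ± 0.145 CPM at 2 h and 0.546 ± 0.699 CPM at 0 h in KO. In WT it averaged 1.11 ± 0.823 CPM at 2 h and 0.586 ± 0.339 CPM at 0 h. The median of the 3 was 2.31 in KO and 1.06 in WT. That in KO was -0.79 without KO 2 h replicate 1 and 1.42 with the batch block. That in WT was -0.32 without all 4 libraries of batch 1 and 0.49 with the batch block. Ugt1a6a and Ugt1a6b, glucuronosyltransferases with shared sequence whose counts are uncertain, reached 14.2 and 13.9 CPM in KO 2 h replicate 1, against at most 3.33 CPM in any other library.

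**Figure D3:**
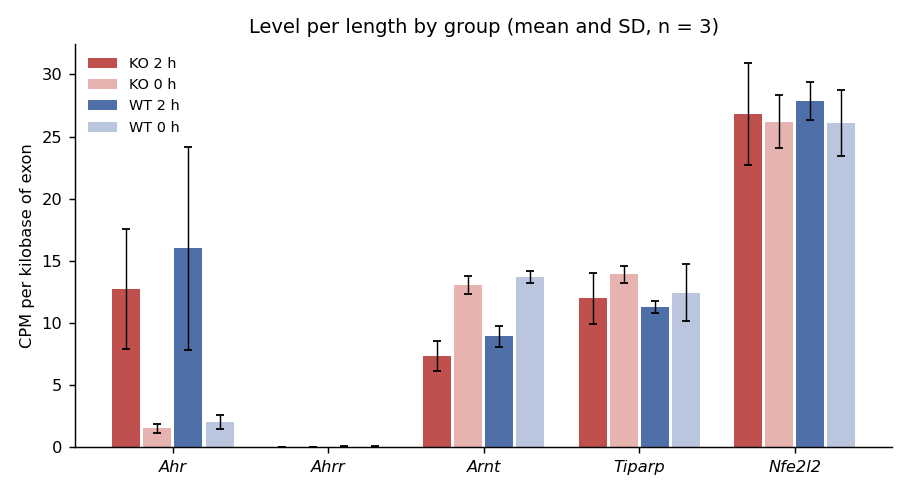
Level of the 5 members in CPM per kilobase of exon, as the mean of 3 libraries with the SD as error bar. Ahr is the lowest of the 4 tested members at 0 h and the second highest by mean at 2 h in both genotypes, and Ahrr is at or near 0.

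The calls among other PARP family genes, relatives of Tiparp, were all towards lower levels, but in WT there was only 1. Of 15 tested, 0 rose and 5 fell in KO, and 0 rose and 1 fell in WT, with medians of -0.49 in KO and -0.28 in WT. Of all tested genes, 13.0% were called lower in KO and 9.06% in WT, so that the WT count did not exceed the general share. With the batch number as a replicate block, 8 fell in KO and 2 in WT. Without all 4 libraries of batch 1, 1 fell in KO and 1 in WT, with a KO median of -0.29. Without KO 2 h replicate 1, 5 fell in WT. Parp4, the vault PARP, averaged 75.6 ± 21.0 CPM at 2 h and 133 ± 6.76 CPM at 0 h in KO and fell by 0.80 ± 0.17 (adjusted p = 0.00562). Parp16, an enzyme of the endoplasmic reticulum, fell by 1.47 ± 0.43 (adjusted p = 0.0264) in KO, Zc3hav1, the antiviral zinc finger protein, by 0.62 ± 0.19 (adjusted p = 0.0288) and Parp3 by 0.66 ± 0.22 (adjusted p = 0.0448). Leaving out 1 library ended the call in KO for 3 libraries with Parp16 (adjusted p up to 0.09), 2 with Zc3hav1 (up to 0.0959) and 9 with Parp3 (up to 0.144). Parp9 fell by 0.48 ± 0.16 in WT (adjusted p = 0.0498), a call lost without any of 10 libraries (adjusted p up to 0.202). Whether the genotypes differed was tested in the model, and 0 genes were called for a difference in response.

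Nfe2l2 did not pass the test in either genotype. In KO cells it was 89.4, 96.6 and 119 CPM at 2 h, against 106, 102 and 90.6 CPM at 0 h. In WT cells it was 109, 99.1 and 109 CPM at 2 h, against 104, 87.6 and 106 CPM at 0 h. The times overlapped in both genotypes. The log2 fold change was 0.038 in KO (95% interval -0.24 to 0.32) and 0.092 in WT (-0.19 to 0.37), which spans 0.844- to 1.25-fold in KO and 0.877- to 1.30-fold in WT. Of the KO mice 1 of 3 and of the WT mice 3 of 3 were higher at 2 h. NRF2 is controlled mainly through protein stability, which these data do not measure.

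Several partners of NRF2 rose. Of 11 regulators and partners, 4 rose and 1 fell in KO and 4 rose and 0 fell in WT, with medians of 0.55 in KO and 0.67 in WT. Without all 4 libraries of batch 1, 5 rose and 0 fell in each genotype, and the medians were 0.38 in KO and 0.18 in WT. Maff, Mafg and Mafk encode the small MAF proteins with which NRF2 binds DNA, and all 3 rose in both genotypes. Maff averaged 61.3 ± 19.6 CPM at 2 h and 10.5 ± 2.81 CPM at 0 h in KO, and 48.3 ± 10.5 CPM at 2 h and 9.03 ± 2.12 CPM at 0 h in WT. Its log2 fold change was 2.55 ± 0.29 in KO and 2.43 ± 0.29 in WT. Mafg rose by 1.27 in KO and 1.36 in WT, and Mafk by 0.86 in KO and 1.1 in WT. The Mafk call in KO was lost without KO 0 h replicate 3 or KO 2 h replicate 2 (adjusted p up to 0.0641). Bach1, a repressor that competes with NRF2 for the small MAF proteins, rose by 0.59 in KO and 0.67 in WT. Cul3, the scaffold of the KEAP1 ubiquitin ligase, fell by 0.46 ± 0.15 in KO (adjusted p = 0.0369), a call lost without any of 7 libraries (adjusted p up to 0.144) and with the animal as a replicate block (adjusted p = 0.0828). Keap1 itself was not called, at -0.12 in KO and -0.17 in WT.

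Of 19 tested NRF2 target genes, 7 rose and 1 fell in KO and 5 rose and 1 fell in WT, with medians of 0.32 in KO and 0.22 in WT. Without all 4 libraries of batch 1, 5 rose and 0 fell in each genotype, and the medians were 0.36 in KO and 0.092 in WT. The WT median was 0.38 without both 2 h libraries of batch 1, and the KO median was 0.48 with the batch number as a replicate block. Txnrd1, which encodes thioredoxin reductase, rose by 1.32 ± 0.27 in KO and 1.04 ± 0.27 in WT. Its WT call was lost without WT 0 h replicate 1, WT 0 h replicate 3 or WT 2 h replicate 2 (adjusted p up to 0.0963). Gclc, the catalytic subunit of the first enzyme of glutathione synthesis, averaged 265 ± 148 CPM at 2 h and 113 ± 3.49 CPM at 0 h in KO, and 237 ± 40.3 CPM at 2 h and 107 ± 9.42 CPM at 0 h in WT. It rose by 1.24 in KO (adjusted p = 0.0256) and 1.15 in WT (adjusted p = 0.0451), calls lost without any of 5 libraries in KO (adjusted p up to 0.0876) and of 9 in WT (up to 0.144). They were also lost with the animal as a replicate block (adjusted p = 0.065 in KO and 0.0535 in WT). Ftl1, the ferritin light chain, rose by 0.97 in KO and 0.85 in WT, and Tkt, transketolase of the pentose phosphate pathway, by 0.96 in KO and 0.82 in WT. Txn1, thioredoxin, rose by 0.98 ± 0.29 in KO (adjusted p = 0.0278) but was not called without KO 0 h replicate 1, KO 0 h replicate 2 or KO 2 h replicate 1 (adjusted p up to 0.0939). Osgin1, an oxidative stress-induced growth inhibitor, fell by 0.85 in KO (adjusted p = 0.0278) and 1.15 in WT (adjusted p = 0.00876), and its KO call was lost without any of 5 libraries (adjusted p up to 0.0845). Both Osgin1 calls were lost without all 4 libraries of batch 1. The widely used NRF2 markers Nqo1 and Hmox1 were not called in either genotype.

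**Figure D4:**
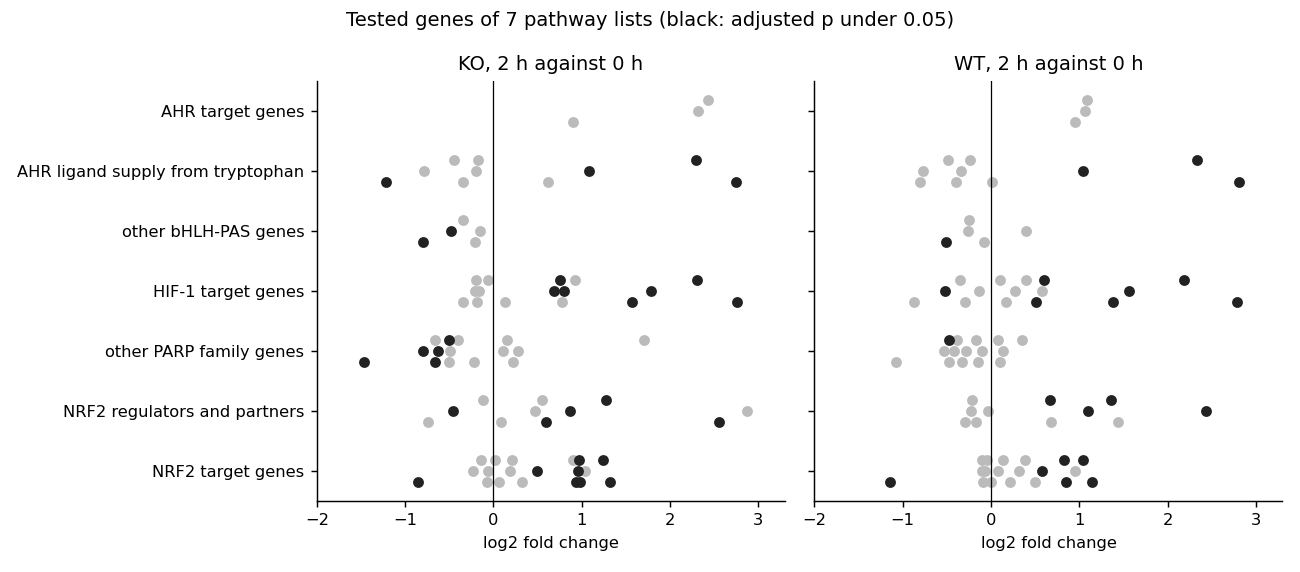
Log2 fold change, 2 h over 0 h, of each tested gene of 7 pathway lists in KO (left) and WT (right); black points were called at an adjusted p under 0.05. Ligand supply, HIF-1 targets and NRF2 partners each hold genes above 2 on the log2 scale in both genotypes, and the 3 tested AHR targets are not called.

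KO and WT cells were compared at each time to ask whether Jmjd1c loss altered the axis. At 2 h the log2 fold change of KO over WT was -0.31 for Ahr (95% interval -1.19 to 0.56), -0.27 for Arnt (-0.55 to 0.0060), 0.10 for Tiparp (-0.23 to 0.43) and -0.050 for Nfe2l2 (-0.33 to 0.23). At 0 h it was -0.39 for Ahr (-1.35 to 0.57), -0.072 for Arnt (-0.34 to 0.20), 0.16 for Tiparp (-0.16 to 0.48) and 0.0040 for Nfe2l2 (-0.28 to 0.28). The Ahr value at 2 h was -0.060 without KO 2 h replicate 1 and -0.56 without KO 2 h replicate 2. Leaving out 1 of the WT libraries at 2 h gave -0.68 for replicate 1, -0.12 for replicate 2 and -0.047 for replicate 3. At 0 h it ran from -0.59 without KO 0 h replicate 1 to -0.19 without WT 0 h replicate 2, and was -0.77 without all 4 libraries of batch 1. The groups of all 4 members overlapped at both times, as did those of most tested genes. Only 8.22% of tested genes did not overlap at 2 h and 5.85% at 0 h. None of the 4 was called, among 0 of 12242 genes called by edgeR at either time (0%). At an unadjusted p under 0.05 there were 640 genes at 2 h and 91 at 0 h, and DESeq2 called 0 at 2 h and 1 at 0 h. Without any genotype effect a share of 0.05 of the 12242 genes would be expected under that limit. The 91 genes at 0 h fall well below that share, so that the edgeR fit was strict there. The lack of calls thus does not show that the genotypes are equal.

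The member closest to the threshold was Arnt at 2 h (adjusted p = 0.887, edgeR). Its log2 fold change was -0.15 without KO 2 h replicate 1 and -0.095 without both 2 h libraries of batch 1. The difference between the 2 h responses of KO and WT was 0.079 for Ahr (95% interval -1.21 to 1.37), -0.20 for Arnt (-0.59 to 0.19), -0.058 for Tiparp (-0.52 to 0.40) and -0.054 for Nfe2l2 (-0.45 to 0.34). The intervals were widest for Ahr, whose 2 h libraries varied most (coefficient of variation 38.1% in KO and 51.2% in WT). For the response difference edgeR called 0 genes (0%, with 40 at an unadjusted p under 0.05) and DESeq2 called 0. The 40 genes also lie well below a share of 0.05 of the 12242 tested, so that this test was strict too. Of the 8 pathway lists, 0 genes were called between the genotypes.

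Set against each other per length, the members changed order between the times. At 2 h in KO, Nfe2l2 averaged 26.8 ± 4.11 CPM per kilobase of exon, Ahr 12.7 ± 4.85, Tiparp 11.98 ± 2.04, Arnt 7.33 ± 1.21 and Ahrr 0.0066. At 0 h in KO, Nfe2l2 averaged 26.2 ± 2.11, Tiparp 13.9 ± 0.708, Arnt 13.0 ± 0.734, Ahr 1.51 ± 0.359 and Ahrr 0.0077 CPM per kilobase. Tiparp and Arnt overlapped at 0 h but not at 2 h, and Ahr overlapped with both at 2 h. At 2 h in WT, Nfe2l2 averaged 27.9 ± 1.52, Ahr 16.0 ± 8.18, Tiparp 11.3 ± 0.490, Arnt 8.92 ± 0.830 and Ahrr 0.014 CPM per kilobase. At 0 h in WT, Nfe2l2 averaged 26.1 ± 2.64, Arnt 13.7 ± 0.456, Tiparp 12.4 ± 2.29, Ahr 2.00 ± 0.549 and Ahrr 0.016 CPM per kilobase. The overlaps were the same as in KO. The level of Ahr exceeded that of 66.8% of the tested genes with a gene model length at 2 h and 22.1% at 0 h in KO, and of 73.2% at 2 h and 25.7% at 0 h in WT.

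The opposite moves of the pair shifted their ratio. Ahr per length was 1.69 ± 0.413 times Arnt at 2 h and 0.116 ± 0.024 times Arnt at 0 h in KO, and 1.84 ± 1.01 times at 2 h and 0.146 ± 0.0368 times at 0 h in WT (SD, n = 3 each). Every 2 h library lay above every 0 h library, which follows from the Ahr and Arnt levels given above and adds nothing to them. WT 2 h replicate 1, at 0.682, was the only 2 h library with less Ahr than Arnt per length. The ratio of transcripts does not give the ratio of the proteins.

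The genes whose levels ran most like those of the members were taken by Pearson correlation of log2 CPM over the 12 libraries, among 10244 genes. The 12 libraries pool both times, so that genes that rise or fall by 2 h can correlate through that change alone. The libraries also share animals and batches, so that the values are descriptive. For Ahr these were Mtap (r = 0.988), Adm (0.988), Ssrp1 (0.987), Bzw2 (0.985) and Slc19a1 (0.985). Mtap encodes the enzyme that salvages methylthioadenosine, Ssrp1 a subunit of the histone chaperone FACT and Slc19a1 the reduced folate carrier, and Adm is in the HIF-1 target list. All 5 had positive log2 fold changes, from 0.37 for Ssrp1 to 2.21 for Slc19a1 in KO and from 0.43 for Ssrp1 to 1.98 for Slc19a1 in WT. For Arnt they were Myo1c (0.989), Kdm7a (0.988), Kdm2a (0.988), Cerk (0.986) and Smchd1 (0.986), all with negative log2 fold changes. Kdm7a and Kdm2a encode JmjC histone demethylases, the family of JMJD1C, and Smchd1 a chromosomal protein of the inactive X. Tiparp and Nfe2l2 had weaker counterparts, led by Rab1 (0.876) for Tiparp and Cr1l (0.848) for Nfe2l2. Between members the strongest correlation was that of Ahr with Arnt (r = -0.814), taken over both times, between which the 2 genes moved in opposite directions.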

How the data were processed

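Poly(A) RNA of sorted splenic follicular B cells was sequenced in 12 libraries. STAR and mm10 are named in the submitters' processing notes; how reads were counted, with which annotation and strand setting, is not stated there. The deposited values are raw counts per gene symbol, not normalized by the authors. No libraries of a group agreed within sampling noise.

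The filter filterByExpr, run on the 4 groups, kept 12242 of 24046 symbols, library sizes were scaled with TMM, and edgeR 4.0.16 (R 4.3.3) fitted 1 mean per group to all 12 libraries by quasi-likelihood. Contrasts were two-sided and p-values adjusted over all tested genes (Benjamini-Hochberg, called under 0.05). SEs come from the F statistic. CPM and log2 values were computed here from the deposited counts. Levels per length used GENCODE M21 exon lengths, found for 95.2% of tested symbols, and RefSeq gave promoters. The fit was run on simulated counts, with a pass limit changed after the first run. These counts were drawn independently, without batches or shared animals, so that the run cannot tell how the fit handles either.

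The labels give batch numbers 1 to 3, shared by both genotypes and by both times of a mouse, so that the numbers pair the libraries. Correlations of deviations from the group means had a median of 0.361 within animals, 0.516 between animals of a batch and -0.28 between batches. The fit above has no block, and fits with a block were alternatives, as were RLE factors, other filters, DESeq2 1.42.0, fewer groups or libraries, and counts without Rn45s. P-values measure the spread between mice of 3 batches.

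The members, the 8 pathway lists and the marker lists were chosen with earlier results of these data known. From each list up to 4 called genes with the largest log2 fold change in each direction were named per comparison, and for each member the 5 genes most correlated with it over the libraries. Per-library values of Ugt1a6a and Ugt1a6b, and genes named with values although not called, were chosen after their values were seen. Values of 1 pathway list member and 1 B cell marker are not reported here.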

Additional observations from a re-analysis of the deposited data

How the results depend on the processing

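The 2 h changes of Ahr and Arnt kept their direction and call in all 24 alternatives in each genotype. With the batch number as a replicate block, the log2 fold change of Ahr was 2.95 in KO and 2.93 in WT and that of Arnt -0.82 in KO and -0.61 in WT, and the block, by batch or by animal, changed no call of a member. With the animal as a block the calls of Gclc in both genotypes, Arntl in WT and Cul3 in KO were lost (adjusted p from 0.0535 to 0.0845). Of 49 calls of genes named from the lists, 31 held in all alternatives, and 1055 of 1176 checks kept the call, with 0 reversed.

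Counts of called genes moved more; where the cause is not fewer samples, the cause was not tested. For 2 h against 0 h, 1626 genes were called in KO from the KO groups alone, against 3316 with all groups, and leaving out 1 library gave 2281 to 3862 in KO and 1349 to 3625 in WT, against 2419. With the batch block and both batch 1 libraries of 2 h left out, chosen after seeing the data, 5492 were called in KO and 5187 in WT. KO differed from WT in 2 genes at 2 h and in 5 at 0 h in that fit, against 0. DESeq2 called 1 gene at 0 h. DESeq2 with the batch block called 18 at 2 h, 5 at 0 h and 1 for the response difference, against 0 by edgeR.

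Uncalled members changed sign in some settings, within their intervals. The response difference of Ahr was -0.010 by DESeq2 with the batch block, -0.041 without both 2 h libraries of batch 1, -0.068 with these left out and the batch block, and -0.29 to 0.35 on leaving out 1 library. That of Tiparp was 0.080 without the 2 h libraries of batch 1, 0.080 with the block added and 0.13 without all of batch 1, and -0.22 to 0.061 on leaving out 1 library. That of Nfe2l2 was 0.054, 0.050 and 0.064 in the same 3 settings, and -0.19 to 0.030 on leaving out 1 library. For Nfe2l2, KO against WT at 2 h was 0.056, 0.055 and 0.052 in these settings and -0.18 to 0.031 on leaving out 1 library. At 0 h it was -0.012 without all of batch 1, and -0.076 to 0.067 on leaving out 1 library. Leaving out 1 library, the 2 h change of Nfe2l2 ran over -0.096 to 0.12 in KO and -0.0058 to 0.14 in WT, that of Tiparp in WT over -0.26 to 0.015, Tiparp in KO against WT at 2 h over -0.00059 to 0.22, and the response difference of Jmjd1c over -0.039 to 0.12. Depth limits Ahrr and the AHR targets, of which 5 of 9 had under 3 counts in every library.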

Other observations

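Among genes near the axis that were not called, Nfe2, a relative of Nfe2l2 known from the red cell lineage, stood at 112, 18.4 and 2.48 CPM in KO 2 h replicates 1 to 3, against 1.97, 14.3 and 1.80 CPM in KO 0 h. In WT it stood at 32.1, 17.3 and 1.73 CPM at 2 h, against 2.70, 14.7 and 1.95 CPM at 0 h. The high libraries were the 2 h libraries of batch 1 and all 4 of batch 2. These libraries had Rn45s shares of 12.9% to 52.3%, and the part of that in the result was not tested. Its fitted log2 fold change of 2.87 in KO and 1.44 in WT was not called by edgeR (adjusted p = 0.147 in KO and 0.527 in WT). Hmox1, the heme oxygenase that both NRF2 and BACH1 control, lay between 3.72 and 5.26 CPM in KO 2 h, 2.49 and 10.3 CPM in KO 0 h, 0.666 and 6.31 CPM in WT 2 h, and 1.59 and 4.58 CPM in WT 0 h libraries, so that all groups overlapped. Both genes were picked after their values were seen.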
